A study of Drosophila melanogaster with 4 samples.

Results

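TwdlF, TwdlW, TwdlG and Tb are 4 of the 27 Tweedle genes of Drosophila melanogaster. They were chosen from the deposited log ratios of these same arrays: each is a Tweedle gene with 1 annotated spot, each has a value on at least 1 array of each biological replicate, and they have the 4 lowest mean ratios of the family. Their own ratios are therefore given as a description, with no test. The next gene above them was TwdlD, at a mean log2 ratio of -0.74, against -0.82 for TwdlG, the highest of the 4.

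The study compared dsap18 mutant embryos with rescued embryos. The mutants had the genotype w1118;dsap18 117/Df(3R)sbd45, in which the allele 117 of dsap18 is a null made by mobilising a P element and the deficiency uncovers the gene. The control embryos, w1118 dsap18-HA;dsap18 117/Df(3R)sbd45, carried the same null allele over the same deficiency and in addition a transgene for HA-tagged dSAP18, so both groups lacked the native gene and differed in the transgene. The sources used here give neither the promoter of the transgene nor the genotype of the mothers, and the labels of 3 arrays place the transgene on X while that of 1 array places it on chromosome 2. Whole embryos were collected over 0 to 24 h, which spans nearly all of embryogenesis. RNA from 2 pairs of extractions, which make 2 biological replicates, was hybridised on 2 arrays per replicate with Cy3 and Cy5 swapped, so the 4 arrays count as n = 2.

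Tweedle proteins are secreted structural proteins of the insect cuticle, the chitin-rich coat that the epidermis lays down late in embryogenesis and again before each moult. They share a conserved domain and lack the chitin-binding consensus of the large CPR family of cuticle proteins. Tb, or Tubby, is TwdlA: its classical dominant allele makes larvae and pupae short and stout and is widely used as a visible marker, and a mutation in TwdlD has a similar effect on body shape. TwdlF, TwdlG and TwdlW encode further proteins of the family.

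The table holds log ratios and no intensities, so the abundance of a transcript is unknown and only its difference between mutant and control embryos can be described. Of the 16416 spots, from 39.8% to 48.6% had a value on an array, and 5754 named genes had a value on at least 1 array of each replicate. The direction of the ratio is not stated in the sources used here. Mutant over control is likely, since the design text calls the mutant RNA the sample and sets it against the other channel, and a negative value is read here as lower in the mutant. In the opposite direction every sign would turn. The ratio was read as log2, which is likewise not stated. Arrays with opposite dyes correlated positively across 4321 genes (Pearson r from 0.67 to 0.92 over all pairs of arrays, with genes that are not independent replicates), so no array was given the opposite sign. No spot was named for dsap18 itself (current symbol Bin1), so the labels could not be checked on the targeted gene.

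All 4 genes had negative ratios on all 4 arrays, as did 30.4% of the 4321 genes with values on every array. Tb (NCBI gene 43212, chromosome arm 3R) was at -0.54 with the mutant in Cy3 and -0.73 with the mutant in Cy5 in replicate 1, and at -1.63 and -1.25 on the corresponding arrays of replicate 2. Its mean log2 ratio was -1.04 ± 0.57 (SD, n = 2), which is 2.05-fold lower in the mutant. Tb was the lowest of the 4 on 3 of 4 arrays and stood at rank 26 from the lowest among the 5754 genes.

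TwdlF (gene 40534, 3R) was at -0.67 and -0.52 in replicate 1 and at -1.40 and -1.01 in replicate 2, each time with the mutant in Cy3 first. The mean was -0.90 ± 0.43 (SD, n = 2), or 1.87-fold lower. The array of replicate 1 with the mutant in Cy3 was the one on which TwdlF lay below Tb. TwdlW (gene 42075, 3R) gave -0.50 and -0.53 in replicate 1 and -1.35 and -0.99 in replicate 2, with a mean of -0.84 ± 0.46 (SD, n = 2), or 1.80-fold lower. TwdlG (gene 40535, 3R) gave -0.52 and -0.53 in replicate 1 and -1.13 and -1.12 in replicate 2. Its mean was -0.82 ± 0.42 (SD, n = 2), or 1.77-fold lower, and it was the steadiest of the 4 between dye swaps. For each of the 4 genes, chosen for low means, both arrays of replicate 2 lay below both arrays of replicate 1. The share of all genes separated in this way was not counted. Of the 4321 genes with values on every array, 47.8% were lower in replicate 2 than in replicate 1. That share covers genes of either sign, and genes with negative ratios were not counted apart.

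**Figure D1:**
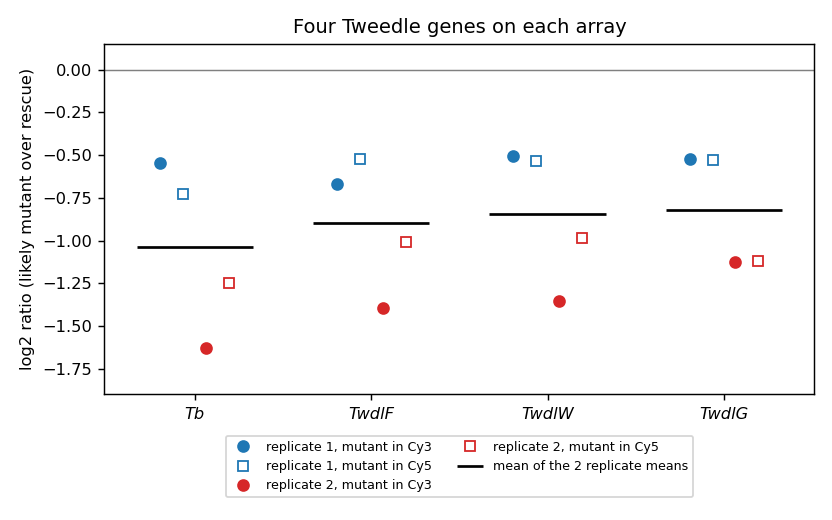
The log2 ratio (vertical axis, likely mutant over rescue) of Tb, TwdlF, TwdlW and TwdlG on each of the 4 arrays, with replicate 1 in blue and replicate 2 in red, filled circles for the mutant in Cy3 and open squares for the mutant in Cy5. Black lines are means of the 2 replicate means, from -1.04 for Tb to -0.82 for TwdlG, and all points lie below 0.

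The size of the difference depended on the replicate. In replicate 1 the means ran from -0.64 for Tb to -0.52 for TwdlW, that is from 1.55-fold to 1.43-fold lower. In replicate 2 they ran from -1.44 for Tb (2.71-fold lower) to -1.12 for TwdlG (2.18-fold lower). The ratio of the replicate 2 mean to the replicate 1 mean was 2.02 for TwdlF, 2.14 for TwdlG, 2.25 for TwdlW and 2.26 for Tb. Over the 4321 genes measured on all 4 arrays the SD of the replicate means was 0.499 in replicate 2 and 0.277 in replicate 1, 1.80 times as wide, so the spread over genes was wider in replicate 2 as well. None of the 4 genes was beyond 2-fold in replicate 1, where 0.209% of all tested genes were beyond 2-fold lower, and all 4 were in replicate 2, where 2.82% were. By rank within a replicate, which does not depend on that width, Tb stood at 65 in replicate 1 and 32 in replicate 2, TwdlF at 84 and 79, TwdlG at 151 and 112, and TwdlW at 158 and 90, out of 5754 genes counted from the lowest.

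The differences between the 4 genes were small beside those between replicates. Tb minus TwdlF was -0.14 ± 0.14 (SD of the replicate differences, n = 2), with Tb lower on 3 of 4 arrays. TwdlF minus TwdlW was -0.06 ± 0.03, also lower on 3 of 4 arrays. TwdlW minus TwdlG was -0.02 ± 0.04, and each of the pair was lower on 2 arrays. TwdlG minus TwdlD, the step to the first gene outside the 4, was -0.09 ± 0.12, with TwdlG lower on 2 of 4 arrays. The order Tb, TwdlF, TwdlW, TwdlG and TwdlD is thus one of means whose neighbours, apart from TwdlF and TwdlW, differed by no more than about 1 SD, and no step kept its sign on all 4 arrays.

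The dye swaps of replicate 2 differed in one direction. In that replicate TwdlF was 0.39 lower with the mutant in Cy3 than with the mutant in Cy5, a swap difference of -0.39, and Tb and TwdlW had swap differences of -0.38 and -0.36, while that of TwdlG was -0.01. The median absolute swap difference over all genes was 0.13 in replicate 2 and 0.10 in replicate 1. All 14 Tweedle genes with values on all 4 arrays had a lower ratio with the mutant in Cy3 in replicate 2, against 53.3% of all 4321 genes. That share covers genes of either sign. In replicate 2 the SD over all tested genes was 0.529 with the mutant in Cy3 and 0.462 with the mutant in Cy5. In replicate 1 the swap differences of the 4 genes were 0.18 for Tb, 0.03 for TwdlW, 0.01 for TwdlG and -0.15 for TwdlF, and so had both signs. The part of the dyes or of the width of each array in these values was not tested.

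Beyond the 4 genes, the family leaned to the same side. Of the 23 other Tweedle genes 22 had a spot and 12 were tested; in the fit over all genes 9 of these 12 fell, none rose and 3 did not pass (limma, Benjamini-Hochberg adjusted p under 0.05 over 5754 genes). By the same rule 11.7% of all tested genes fell and 11.3% rose, 23.0% in all. The median log2 ratio of the 12 was -0.58, with replicate 1 at -0.20 and replicate 2 at -0.81, against 0.02 over all tested genes, with 0.00 and 0.02 in these replicates. The family was looked at because earlier results of these data were known, so its lean is a description and not independent evidence.

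TwdlD, the other family gene known for the tubby body shape, fell by 0.74 on the log2 scale (SD 0.54, n = 2, limma adjusted p = 5.59e-04), with values of -0.52 and -0.18 in replicate 1 and -1.30 and -0.94 in replicate 2, all on the same side of 0. TwdlM (-0.64 ± 0.56), TwdlY (-0.64 ± 0.76), Twdlbeta (-0.63 ± 0.23), TwdlN (-0.62 ± 0.85), TwdlB (-0.62 ± 0.48), TwdlP (-0.53 ± 0.30), TwdlC (-0.50 ± 0.37) and TwdlL (-0.49 ± 0.48) also fell, with limma adjusted p-values between 0.0023 for Twdlbeta and 0.020 for TwdlL. Of these 9 calls 5 (TwdlC, TwdlL, TwdlN, TwdlP and TwdlY) were lost in at least 1 of the other fits that pool the variance over genes, among them TwdlC with the replicate as a random block (limma adjusted p = 0.0570). With the variance of each gene alone all 9 were lost, at adjusted p-values from 0.557 to 0.629. Twdlbeta had 1 array in replicate 2, so a dye effect does not cancel in its mean. TwdlL had a second spot, which had no values.

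TwdlN and TwdlY passed the test although they differed from the 4 genes in replicate 1. TwdlN was at 0.00 and -0.06 in replicate 1 and at -1.44 and -1.01 in replicate 2. TwdlY was at -0.13 and -0.07 in replicate 1 and at -1.26 and -1.09 in replicate 2. Both genes were therefore near 0 in replicate 1 and, in replicate 2, close to TwdlF, TwdlW and TwdlG, whose means there were -1.20, -1.17 and -1.12. In replicate 2, TwdlN (-1.22) and TwdlY (-1.18) were the 2 other Tweedle genes below the highest of the 4. TwdlD (-1.119) was just above TwdlG (-1.123) there. In replicate 1 no other tested Tweedle gene lay below the highest of the 4. The calls of TwdlN and TwdlY rest on a variance that limma pools over genes, since each gene has only 2 replicate means. TwdlN did not pass when the replicate was fitted as a random block (limma adjusted p = 0.0625), with the 4 arrays as independent (0.0598) and with a dye term (0.123), and TwdlY did not pass with a dye term (0.0909).

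TwdlV, TwdlE and TwdlJ did not pass. TwdlV was at -0.34 ± 0.35 (limma adjusted p = 0.113), with -0.07 and -0.12 in replicate 1 and -0.62 and -0.56 in replicate 2. TwdlE was at -0.09 ± 0.02 (SD, n = 2, limma adjusted p = 0.724), its 4 values lying between -0.17 and 0.03. TwdlJ was the one tested Tweedle gene with a positive mean, 0.17 ± 0.02 (limma adjusted p = 0.463), from 0.47 and -0.16 in replicate 1 and a single value of 0.19 in replicate 2. The 2 swaps of TwdlJ in replicate 1 differed by more than its mean.

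A further 6 Tweedle genes had values in replicate 1 alone and could not be tested. TwdlO was at -0.88 and -0.64 there, with a mean of -0.76 that lay below those of all 4 genes in that replicate. TwdlX was at -0.56 and -0.51, close to TwdlG and TwdlW, and TwdlT had 1 value, -0.30. TwdlH was at 0.44 and 0.35, TwdlK at 0.28 and -0.07, and Twdlalpha had 1 value, -0.04. TwdlQ, TwdlR, TwdlS and TwdlZ had a spot and no value on any array, and the pseudogene TwdlU had no spot. The choice of the 4 genes thus depended on which spots kept values: TwdlO had a lower mean than any of them in replicate 1, and its replicate 2 values are empty.

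**Figure D2:**
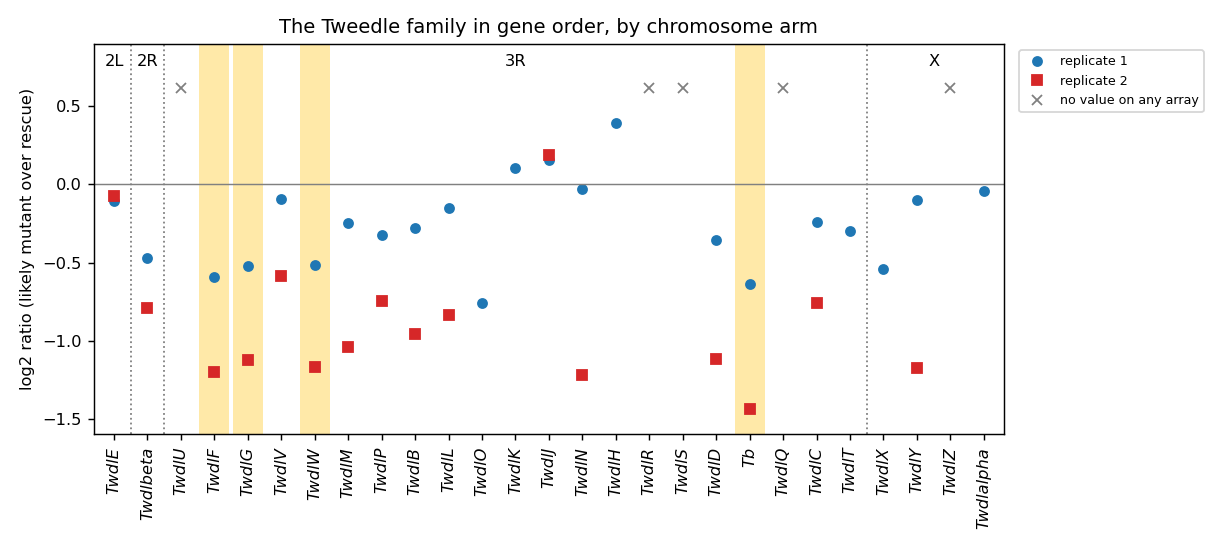
Mean log2 ratio (vertical axis, likely mutant over rescue) of each Tweedle gene in replicate 1 (blue circles) and replicate 2 (red squares), in gene order within the chromosome arms 2L, 2R, 3R and X, with TwdlF, TwdlG, TwdlW and Tb shaded and grey crosses for genes with no value on any array. Replicate 2 lies below replicate 1 for 13 of the 14 genes with values on all 4 arrays, TwdlE being the exception. The same holds for 47.8% of all 4321 genes, which have ratios of either sign. The spread over genes was wider in replicate 2 (SD 0.499 against 0.277), and the share among genes with negative ratios was not counted. The 14 include the 4 shaded genes, which were chosen for low means.

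All 4 genes lie on 3R, as do 21 of the 27 Tweedle genes and 13 of the 16 that had values in both replicates. By gene order in the Release 6 RefSeq table, which served for names and neighbours and not for positions, TwdlF and TwdlG are direct neighbours, with TwdlU on the other side of TwdlF and CG14644, which had no value, between TwdlG and TwdlV. TwdlF and TwdlG had close means (-0.90 and -0.82), and TwdlV, in the same group, was at -0.34. TwdlW stands apart from the rest of the family. Its neighbour m-cup was at 0.36 ± 0.09 (SD, n = 2, limma adjusted p = 0.0877) and did not pass, with 0.42 and 0.43 in replicate 1 and 0.28 and 0.31 in replicate 2, on the opposite side of 0 from TwdlW on every array. In 4 other limma fits m-cup passed as higher. The adjusted p-values were 0.0430 with the replicate as a random block and 0.0156 with the arrays scaled to one spread. They were 0.00833 with the 4 arrays as independent and 0.0282 with a dye term, fits that count swapped arrays as replicates. It did not pass in the remaining alternatives, among them all 4 arrays required (limma adjusted p = 0.100) and dye swap 2 alone (0.0783). CG5265, on the other side of TwdlW, had no value. Tb lies past the long run of Tweedle genes from TwdlM to TwdlD, between beat-VII and a further Tweedle gene, TwdlQ, neither of which had a value. Within that run the tested genes lay between -0.74 (TwdlD) and 0.17 (TwdlJ), all above Tb. How well the spots tell neighbouring copies of the family apart was not tested.

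**Figure D3:**
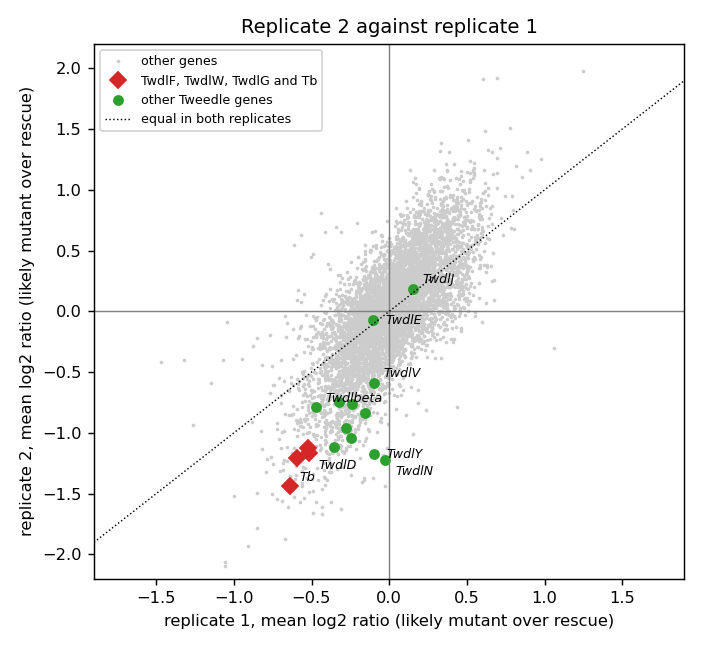
Mean log2 ratio in replicate 2 (vertical axis) against replicate 1 (horizontal axis, both likely mutant over rescue) for the 5754 tested genes, with TwdlF, TwdlW, TwdlG and Tb as red diamonds, the 12 other tested Tweedle genes as green circles and all other genes in grey. The 4 genes sit together at the lower left. TwdlN and TwdlY lie in the range of the 4 on the vertical axis but near 0 on the horizontal one, and 7 genes lie outside the axes.

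The other structural proteins of the cuticle were described from a list of 104 genes, chiefly the CPR family with its chitin-binding consensus and the Lcp and Ccp84 clusters. Of 47 tested genes 27 fell, none rose and 20 did not pass, beside 11.7% of all tested genes that fell and 11.3% that rose. Their median was -0.46, from -0.19 in replicate 1 and -0.74 in replicate 2, against 0.02 over all tested genes. The lowest were Cpr92F (-1.13 ± 0.68, SD, n = 2, limma adjusted p = 4.06e-07), Ccp84Ab (-0.81 ± 0.30) and Ccp84Ag (-0.77 ± 0.57). Cpr92F was at -0.65 in replicate 1 and at -1.61 on its 1 array of replicate 2. Its p-value rests on the variance that limma pools over genes. With the variance of each gene alone none of the 47 was called. The highest, Cpr49Ac (0.23 ± 0.09), Cpr30F (0.19 ± 0.27) and Lcp65Aa (0.07 ± 0.29), did not pass. Cpr92F was the 1 gene of these 47 with a mean at or below that of TwdlG (-0.82), the highest of the 4 Tweedle genes. Ccp84Ab, at -0.81, was close to TwdlG. In replicate 1 Ccp84Ab (-0.59) lay below TwdlG and TwdlW (both -0.52), and in replicate 2 (-1.02) above them (-1.12 and -1.17). Cpr92F and Tb had means of -1.13 and -1.04.

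Genes of the chitin matrix and of the epidermis that makes the cuticle leaned the same way. Of 14 tested chitin matrix genes 11 fell and none rose, beside 11.7% of all tested genes that fell; the median was -0.59, and by replicate it was -0.35 in replicate 1 and -0.75 in replicate 2. The most extreme were obst-B (-1.0 ± 0.50) and obst-A (-0.78 ± 0.32), which encode chitin-binding proteins, each without a value on 1 array. Of 10 tested genes of epidermal differentiation 5 fell and none rose, with a median of -0.41 (replicate 1 at -0.29 and replicate 2 at -0.50), led by the zona pellucida domain genes neo (-1.13 ± 0.62) and tyn (-0.57 ± 0.17). The Osiris family, a cluster of insect genes expressed in cuticle-forming epithelia, had 8 tested members, all of which fell, with a median of -0.87 (replicate 1 at -0.59 and replicate 2 at -1.12). Osi7 (-1.04 ± 0.70) and Osi6 (-1.02 ± 0.77) were the lowest, and 6 of the 8 had means at or below that of TwdlG. Means at or below that of TwdlG were found for 89 of all 5754 genes (1.55%).

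Genes of other tissues also leaned to lower ratios. Of the tested marker genes 7 of 11 fell for muscle (median -0.49), 5 of 7 for hemocytes (median -0.69), 9 of 14 for the midgut (median -0.59), 3 of 5 for glia (median -0.51), 2 of 4 for neurons (median -0.28) and 1 of 3 for trachea and salivary gland (median -0.24), and none rose, beside 11.7% of all tested genes that fell. These medians were closer to 0 in replicate 1 for each list: -0.18 there and -0.83 in replicate 2 for muscle, -0.28 and -1.11 for hemocytes, -0.50 and -0.60 for the midgut, -0.34 and -0.68 for glia, -0.07 and -0.49 for neurons, and -0.01 and -0.47 for trachea and salivary gland. The most extreme were the tropomyosin gene Tm2 (-0.75 ± 0.28) and the troponin C gene TpnC73F (-0.74 ± 0.57) in muscle, the prophenoloxidase genes PPO2 (-0.97 ± 0.53) and PPO1 (-0.95 ± 0.39) in hemocytes, and the serine protease genes Jon25Bii (-0.98 ± 0.30) and Jon99Ci (-0.84 ± 0.22) in the midgut. In the remaining lists they were Gs2 (-0.78 ± 0.54) and nrv2 (-0.58 ± 0.26) in glia, and the RNA-binding protein gene fne (-0.75 ± 0.53) and Gad1 (-0.42 ± 0.43) in neurons. Gad1 did not pass when the replicate was fitted as a random block (limma adjusted p = 0.0519). The third list held the chitin-binding protein gene Gasp (-0.74 ± 0.22), which is also in the chitin list, and sage (0.24 ± 0.30), which did not pass. Maternal transcripts ran the other way: of 17 tested genes 6 rose, none fell and 11 did not pass, with a median of 0.29 (replicate 1 at 0.31 and replicate 2 at 0.50) and beside 11.3% of all tested genes that rose, led by mael (1.14 ± 0.52), a piRNA pathway gene, and plu (0.89 ± 0.39), which controls the nuclear cycles of the early embryo. Markers of the tissues of a whole embryo were thus measured, as the labels state. The part of embryo age or tissue makeup in the Tweedle ratios was not tested, and in RNA from whole embryos fewer epidermal cells and less RNA per cell cannot be told apart.

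**Figure D4:**
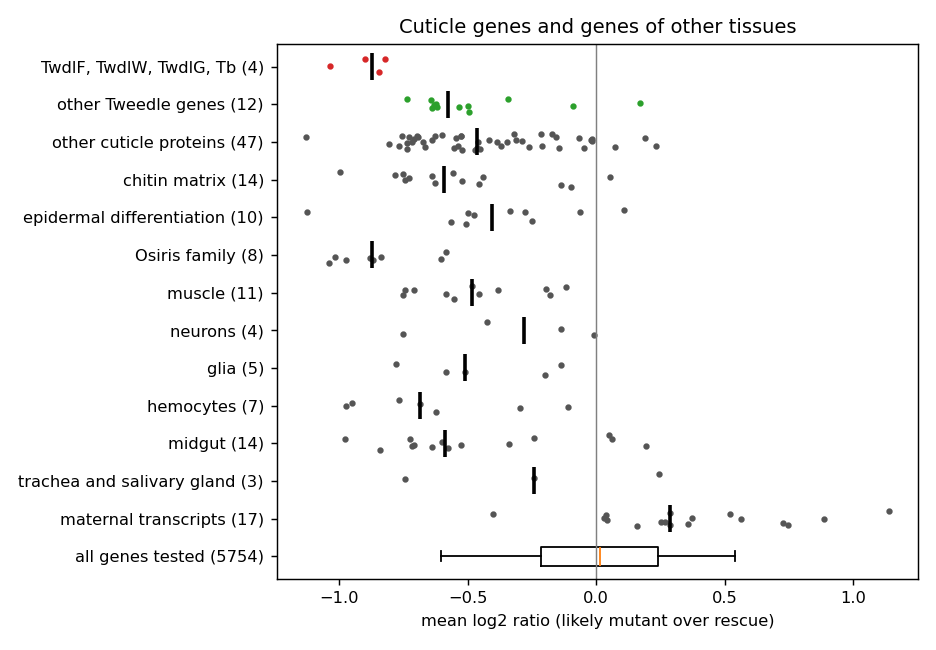
Mean log2 ratio (horizontal axis, likely mutant over rescue) of each tested gene, with TwdlF, TwdlW, TwdlG and Tb in the top row, the other Tweedle genes below them, then the cuticle, epidermal and tissue lists, with the number of tested genes in brackets. Black bars are list medians, and the bottom row gives all genes as a box from the lower to the upper quartile with whiskers at the 5th and 95th percentiles. The 4 genes lie between -1.04 and -0.82, to the left of the lower whisker at -0.61.

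The genes whose profile over the 4 arrays lay nearest to the mean of the 4 Tweedle genes (-0.56, -0.58, -1.38 and -1.09, by replicate and with the mutant in Cy3 first) were not cuticle genes by name. By Euclidean distance in log2 ratio over the 4 arrays, among 4321 genes, they were CG13033 (0.08), HIP (0.11), Cyp304a1 (0.11), CG30413 (0.15) and ken (0.17). HIP encodes a partner of Hsp70 chaperones, Cyp304a1 a cytochrome P450 and ken a BTB zinc finger protein. With 4 arrays from 2 replicates, such likeness is mainly one of size and of the step between the replicates.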

How the data were processed

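The deposited values are log ratios of the 2 channels of each array, read as log2, for 16416 spots on 4 arrays. Limma is named for the authors' processing per the submitters' processing notes; the sources used here give no version, background correction, normalization, rule for empty spots, log base or direction. Array medians lay between 0.00 and 0.01. Spots were named through the platform annotation (13164 with 1 symbol, 101 with several, 3151 with none), updated through the Release 6 RefSeq gene table by gene ID (12533) or accession (120), and 511 kept their symbol. Spots of a gene were averaged, then the swapped arrays of a replicate. No sign was turned, although the design had allowed for it. The 2 replicate means of 5754 genes were set against 0 in limma 3.58.1 (R 4.3.3; lmFit, eBayes, two-sided, Benjamini-Hochberg, threshold 0.05; 80.0 prior degrees of freedom and 1 residual). The procedure was tested on simulated data with the same spread for all genes and both replicates and no empty arrays. That test therefore does not cover the wider spread of replicate 2, unequal variances between genes or missing values. Errors are the SD of the 2 replicate means. The members, gene lists and alternatives were chosen with earlier results of these data known. The genes named were the 4 members, every other Tweedle gene, the 3 lowest and 3 highest other cuticle genes, the 2 most extreme genes of each other list, the neighbours of the members and the 5 nearest profiles. Alternatives changed the arrays required, the dye orientation, the treatment of technical repeats, a dye term, centring, scaling, spot averaging and variance moderation. Brightness over background is not known for any spot, and precision is limited by having 4 arrays.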

Additional observations from a re-analysis of the deposited data

How the results depend on the processing

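The mean log2 ratios of the 4 members, which were chosen for low means, stayed negative in all 10 alternatives and in either replicate alone. They lay between -1.09 and -0.97 for Tb, -1.03 and -0.77 for TwdlF, -0.93 and -0.76 for TwdlW and -0.83 and -0.78 for TwdlG. Each member has 1 spot with values on all 4 arrays. Its mean is therefore fixed in the alternatives on arrays required, technical repeats, a dye term, spot averaging and moderation. Only the alternatives with 1 dye orientation, centring or scaling could move it, so the constant sign is a description and not support. Without moderation, that is with the variance of each gene alone, no gene was called (459 of 5754 had an unadjusted p under 0.05): 0 of the 12 other tested Tweedle genes (0 unadjusted) and 0 of 47 other cuticle genes (1 unadjusted). With a dye term, which needs all 4 arrays and was fitted with the arrays as independent, 1559 of 4321 genes were called. Among them were 5 of 10 other Tweedle genes, against 9 of 12, and 14 of 35 cuticle genes, against 27 of 47. The same 4321 genes fitted on replicate means without that term gave 932, 8 of 10 and 19 of 35. These fits thus differ in the dye term and also in the treatment of the swapped arrays. With the 4 arrays taken as independent 2450 genes were called, against 1321; with each array scaled to one spread 1008 rose, against 648. Of the 9 called Tweedle genes, 5 lost the call in at least 1 of the alternatives with moderation. They were TwdlC, TwdlL, TwdlN, TwdlP and TwdlY, with highest limma adjusted p-values of 0.117, 0.0649, 0.123, 0.0507 and 0.0909. With moderation, TwdlB, TwdlD and TwdlM kept the call in all 9 alternatives, and Twdlbeta in the 6 in which it could be fitted. The epidermal list had 5 calls of 10 genes, against which stood 3 of 7 when all 4 arrays were required, 3 of 7 and 3 of 10 in dye swap 1 and 2 alone, 5 of 7 with a dye term and 8 of 10 with independent arrays. The maternal list had 11 of 17 with independent arrays, against 6 of 17. The hemocyte list had 3 of 5 with a dye term and independent arrays, against 5 of 7. On replicate means of genes with all 4 arrays it had 4 of 5. The neuronal list had 1 of 4 in 5 alternatives, against 2 of 4. Beyond 2-fold in either direction were 229 genes without replicate 1 and 15 without replicate 2, against 43. Among the other Tweedle genes these counts were 4 and 0, against 0, and among other cuticle genes 8 and 0, against 1. With 1 replicate left out no test was possible. The cause of these changes was not tested.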
